A study of Mus musculus with 8 samples.

Results

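Receptors for the constant region of immunoglobulin G and markers of tissue-resident macrophages were followed in hearts of ARE-/- and WT mice, which differ in the control of interferon gamma (IFN-γ). The genes were chosen by name. They were the Fc receptor genes Fcgr1, Fcgr2b, Fcgr3, Fcgr4 and Fcer1g and the resident macrophage markers Cd163, Lyve1, Mrc1, Folr2 and Timd4, as far as the deposited comparison of ARE-/- with WT hearts lists them. Of these 10 genes, 7 were among the 4820 listed genes: all 5 Fc receptor genes, Cd163 and Timd4. Lyve1, Mrc1 and Folr2 were not among the listed genes and have no known direction. The study sequenced total RNA of whole hearts from male C57B6/J mice aged 20 to 25 weeks, 4 WT and 4 ARE-/-, and its title concerns IFN-γ, androgens and mitochondrial function in heart muscle cells. ARE is not spelled out in the labels. It is taken to mean the AU-rich element of the Ifng 3′ untranslated region, which is known to shorten the life of that transcript. Such an allele is a germline change present in every cell, the cells that make the excess IFN-γ are not given, and WT mice carry no allele or treatment by the labels. Only males were profiled.

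Fc gamma receptors bind antibody that has coated a target and pass the signal into macrophages, monocytes, neutrophils, NK cells and some other cells. Fcgr1 encodes the high-affinity receptor for monomeric IgG, Fcgr3 a low-affinity activating receptor, and Fcgr4 an activating receptor of intermediate affinity found on monocytes, macrophages and neutrophils. These activating receptors need the common gamma chain, encoded by Fcer1g, whose ITAM motif recruits the kinase Syk, and Fcgr2b is the inhibitory receptor, whose ITIM motif recruits the lipid phosphatase encoded by Inpp5d. Resident macrophages of the heart are long-lived cells known for Lyve1, Timd4, Folr2, Mrc1 and the haemoglobin scavenger receptor Cd163. IFN-γ is known as an inducer of Fcgr1.

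Promoter sequence is shown for the activating receptors Fcgr4 and Fcgr1 and for Cd163, because these genes moved in opposite directions. Each line gives 300 bases, 250 before and 50 after the start site of the RefSeq model (GRCm38.p6), read 5′ to 3′ on the strand of the gene. The windows are chr1:171018676-171018975 on the forward strand for Fcgr4, chr3:96293920-96294219 on the reverse strand for Fcgr1 and chr6:124304401-124304700 on the forward strand for Cd163. Capitals mark matches to TTCNNNGAA, the consensus of the gamma-activated site (GAS) of IFN-γ-responsive promoters, to GAAANNGAAA, a paired half-site bound by interferon regulatory factors, and to GAGGAA or its reverse complement TTCCTC, the core bound by the myeloid factor PU.1.
Fcgr4: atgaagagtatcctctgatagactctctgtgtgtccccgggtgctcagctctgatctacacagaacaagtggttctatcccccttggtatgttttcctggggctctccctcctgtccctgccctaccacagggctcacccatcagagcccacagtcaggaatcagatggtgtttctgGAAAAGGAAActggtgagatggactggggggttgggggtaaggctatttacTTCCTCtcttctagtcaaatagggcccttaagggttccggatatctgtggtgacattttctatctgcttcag
Fcgr1: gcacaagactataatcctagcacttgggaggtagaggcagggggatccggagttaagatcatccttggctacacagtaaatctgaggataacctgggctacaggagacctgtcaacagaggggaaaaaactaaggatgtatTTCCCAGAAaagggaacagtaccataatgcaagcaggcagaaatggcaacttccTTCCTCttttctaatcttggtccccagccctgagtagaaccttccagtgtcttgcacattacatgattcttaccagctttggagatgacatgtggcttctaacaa
Cd163: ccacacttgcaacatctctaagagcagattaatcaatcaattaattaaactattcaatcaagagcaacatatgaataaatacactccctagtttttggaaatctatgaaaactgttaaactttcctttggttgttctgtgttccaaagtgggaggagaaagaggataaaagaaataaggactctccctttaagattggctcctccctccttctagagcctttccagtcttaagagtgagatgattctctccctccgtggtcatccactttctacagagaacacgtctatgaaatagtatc
Both strands were searched and no match overlapped another. The Fcgr1 window held the GAS match TTCCCAGAA at -109 to -101 from the start site and a PU.1 core at -55 to -50. The Fcgr4 window held GAAAAGGAAA at -73 to -64 and a PU.1 core at -22 to -17. Fcgr3 had a PU.1 core, and the windows of Fcgr2b, Fcer1g, Cd163 and Timd4 had no match to these letters. Among 32851 promoter windows of the same length, 8.3% held the GAS letters, 3.44% the paired half-site and 28.3% the PU.1 core, so the core in particular is common. All 7 listed genes were found in the promoter table, and a match is only a description of letters.

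Library totals ran from 13416171 to 19432098 reads and did not differ between groups beyond their spread (exact permutation test, two-sided, p = 0.514, with 0.0286 the smallest p that 4 against 4 allows). The share of reads that fell in listed genes was 59.1% ± 1.63 in WT against 52.0% ± 2.48 in ARE-/- (SD, n = 4 each). The exact permutation test gave that smallest p, 0.0286. The listed genes were picked for differing between these same libraries, so that p-value is no independent finding about the libraries. The libraries were not equally close within a group. ARE-/- replicate 1 and WT replicate 3 stood apart: the median spread between libraries beyond counting error was 16.9% in ARE-/- and 3.90% without replicate 1, and 9.33% in WT and 4.01% without replicate 3. Each library was taken as a separate heart. If the 3 close libraries of a group came from a single RNA or pool, the p-values below would be too small. Cardiomyocyte transcripts were abundant in every library, as the heart label says. The sum of the 6 listed cardiomyocyte markers was between 211005 and 625874 normalised counts, lowest in ARE-/- replicate 1.

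Ifng reads separated the genotypes as labelled. Ifng had 0, 3, 0 and 1 reads across the WT libraries and 103, 37, 27 and 61 across the ARE-/- libraries, in order of replicate number, with a log2 difference of 5.34 ± 0.82 (SE, n = 4 each). ARE-/- replicate 1 had the most.

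All 5 Fc receptor genes rose in ARE-/- hearts, by folds of the means from 2.44 for the inhibitory Fcgr2b to 34.2 for the activating Fcgr4. Of the listed resident macrophage markers, Cd163 fell and Timd4 rose. By the authors' DESeq2 test 24.6% of the 19606 genes tested passed an adjusted p of 0.05, 12.8% higher and 11.8% lower. These shares are to be held beside each count of listed genes in the gene lists below. The deposited table lists only genes that passed, so nothing is read from the presence of 7 of the 10 genes in it. In normalised counts the groups did not overlap in any of the 7 genes, and they did not in 81.5% of all listed genes. Across the listed genes the median log2 difference was 0.44, against 1.92 for the 5 Fc receptor genes. Normalised counts are read counts divided by the authors' size factors, and log2 differences are means of log2(normalised count + 0.5) in ARE-/- minus WT. In these whole hearts a change in the number of cells of a type and a change in RNA per cell cannot be told apart.

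**Figure D1:**
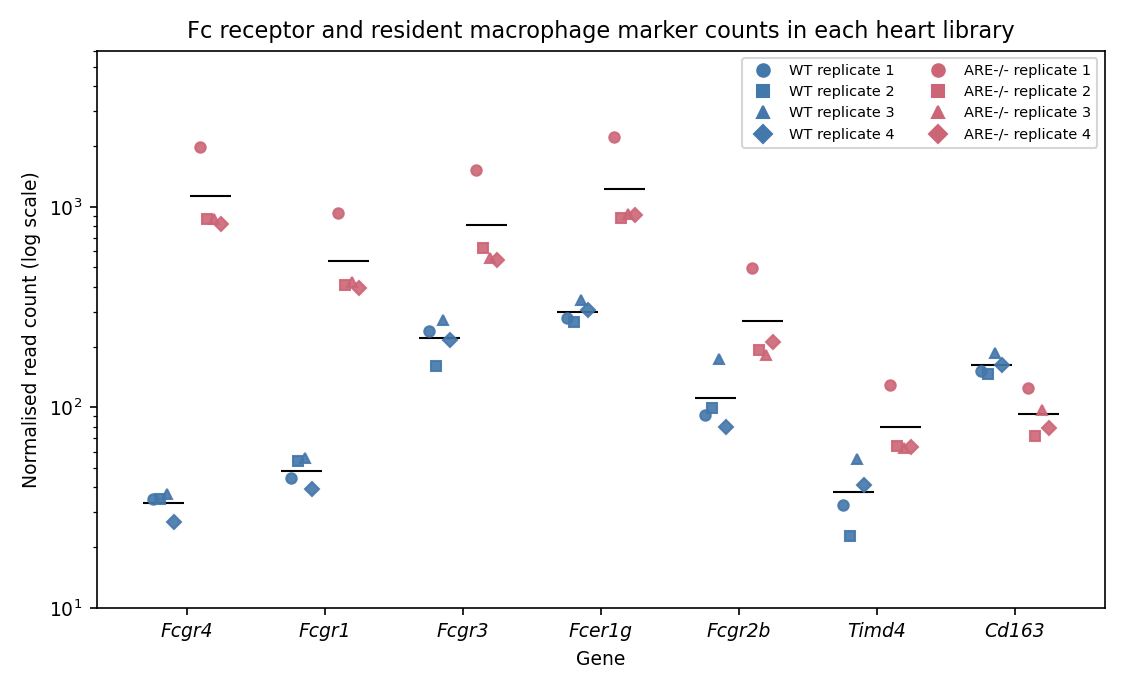
Normalised read counts (log scale) of the 7 listed genes in each of the 8 heart libraries, with a horizontal bar at each group mean. All 4 ARE-/- libraries lie above all 4 WT libraries for the Fc receptor genes and Timd4 and below them for Cd163, and ARE-/- replicate 1 is the highest of its group for each gene.

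Fcgr4, the activating receptor for IgG complexes, rose the most. The gene (ENSMUSG00000059089) spans 171018920 to 171029761 of chromosome 1 (mm10, forward strand). Its normalised counts were 34.8, 34.7, 36.8 and 26.7 in WT and 1992, 869, 865 and 818 in ARE-/-, in order of replicate number. The WT libraries lay close together, and ARE-/- replicate 1 stood far above the other 3, which were near one another. The means were 33.3 ± 4.46 and 1136 ± 571 (SD, n = 4 each), a 34.2-fold difference, with a log2 difference of 4.97 ± 0.32 (SE). Its adjusted p in the authors' deposited table is 7.1e-51 (DESeq2). Without ARE-/- replicate 1 the log2 difference was 4.67 ± 0.11 and the fold of the means 25.6. Of all listed genes, 0.705% had a larger log2 difference, which puts Fcgr4 at rank 35 of 4820.

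Fcgr1, the high-affinity IgG receptor, also rose, by less than Fcgr4. It (ENSMUSG00000015947) spans 96282909 to 96293969 of chromosome 3 (mm10, reverse strand). Normalised counts were 44.4, 53.8, 56.2 and 39.1 in WT and 932, 410, 420 and 393 in ARE-/-. As for Fcgr4, the groups were far apart and ARE-/- replicate 1 was alone at the top. The means of 48.4 ± 8.01 and 538 ± 263 (SD, n = 4 each) differed 11.1-fold, with a log2 difference of 3.37 ± 0.32, and 3.08 ± 0.12 without ARE-/- replicate 1 (SE). The authors' deposited table gives an adjusted p of 1.1e-24 for Fcgr1 (DESeq2).

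Fcgr3, the low-affinity activating receptor, was the most abundant of the 4 Fc gamma receptors in WT hearts and rose less. The gene (ENSMUSG00000059498) spans 171051174 to 171064935 of chromosome 1 (mm10, reverse strand). Its normalised counts were 239, 162, 274 and 216 in WT and 1529, 624, 558 and 544 in ARE-/-. The groups did not overlap, and ARE-/- replicate 1 was again the highest. The means were 223 ± 47.2 and 814 ± 478 (SD, n = 4 each), and the log2 difference of 1.75 ± 0.39 became 1.39 ± 0.17 without that library (SE). The adjusted p of Fcgr3 in the authors' deposited table is 1.4e-06 (DESeq2).

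Fcer1g, which encodes the shared signalling chain, also rose. This gene (ENSMUSG00000058715) spans 171229572 to 171234365 of chromosome 1 (mm10, reverse strand). Normalised counts were 279, 267, 343 and 307 in WT and 2225, 879, 917 and 905 in ARE-/-. The 3 lower ARE-/- libraries were close together, well above WT, and replicate 1 was far above them. The means were 299 ± 33.8 and 1232 ± 663 (SD, n = 4 each), with a log2 difference of 1.92 ± 0.34, or 1.60 ± 0.08 without ARE-/- replicate 1 (SE). For Fcer1g the authors' deposited table gives an adjusted p of 2.0e-09 (DESeq2).

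Fcgr2b, the inhibitory receptor, had the smallest rise of the 5 Fc receptor genes. It (ENSMUSG00000026656) spans 170960558 to 170976547 of chromosome 1 (mm10, reverse strand). Normalised counts were 91.3, 99.3, 174 and 80.2 in WT and 497, 192, 183 and 212 in ARE-/-. WT replicate 3 came close to the lowest ARE-/- library, and ARE-/- replicate 1 was the highest. The means of 111 ± 42.7 and 271 ± 151 (SD, n = 4 each) gave a log2 difference of 1.21 ± 0.42, or 0.88 ± 0.25 without ARE-/- replicate 1 and 1.11 ± 0.11 without both libraries that stood apart (SE). Fcgr2b has an adjusted p of 0.00494 in the authors' deposited table (DESeq2). The call was lost in an edgeR refit of the listed genes with TMM scaling (adjusted p = 0.0512) and in refits without WT replicate 1, 2 or 4 (log2 differences of 1.15 to 1.23, edgeR adjusted p = 0.0949, 0.0918 and 0.0969). Fcgr2b and Fcgr3 resemble each other, with 9.58% of the 50-base windows of Fcgr3 exons also found in Fcgr2b and 6.95% of those of Fcgr2b found in Fcgr3 or in Gm38204, an antisense gene that overlaps Fcgr2b. The authors' handling of such reads and of strand is not known from the labels, so the split between these genes is uncertain, while Fcgr1, Fcgr4, Fcer1g and Timd4 shared no such window.

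Cd163, the haemoglobin scavenger receptor of resident macrophages, was the only listed gene of the 10 that fell. The gene (ENSMUSG00000008845) spans 124304651 to 124330527 of chromosome 6 (mm10, forward strand). Normalised counts were 151, 147, 186 and 163 in WT and 124, 71.6, 97.5 and 78.5 in ARE-/-. On this scale every ARE-/- library lay below every WT library, and ARE-/- replicate 1 was the nearest to WT. On the authors' FPKM scale the groups overlapped, with 1.88 to 2.50 in WT and 1.06 to 2.16 in ARE-/-. The means were 162 ± 17.4 and 93.0 ± 23.6 (SD, n = 4 each), a 1.74-fold lower level, with a log2 difference of -0.82 ± 0.19, or -0.97 ± 0.15 without ARE-/- replicate 1 (SE). The authors' deposited table gives Cd163 an adjusted p of 0.00386 (DESeq2), and 62.6% of the listed genes that fell had a larger fall. The size of the fall depended on the scaling: it stood at -0.58 with library totals (edgeR adjusted p = 0.179) and at -0.21 with offsets that remove the trend with transcript GC content (edgeR adjusted p = 1.0). With all libraries the same edgeR fit with the authors' size factors gave -0.80 (adjusted p = 0.0178). Without WT replicate 4, ARE-/- replicate 2 or ARE-/- replicate 4 it gave -0.79, -0.69 and -0.72, with p-values just above the threshold (edgeR adjusted p = 0.0508, 0.054 and 0.0597).

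Timd4, a receptor for phosphatidylserine that marks a long-lived resident subset, rose. This gene (ENSMUSG00000055546) spans 46810800 to 46844332 of chromosome 11 (mm10, forward strand). Normalised counts were 32.4, 22.7, 55.2 and 41.1 in WT and 129, 63.8, 62.3 and 63.3 in ARE-/-. The lower ARE-/- libraries lay just above WT replicate 3, and ARE-/- replicate 1 stood apart. The means were 37.9 ± 13.8 and 79.6 ± 33.0 (SD, n = 4 each), with a log2 difference of 1.06 ± 0.37, or 0.80 ± 0.27 without ARE-/- replicate 1 (SE), and the adjusted p in the authors' deposited table is 0.0213 (DESeq2). The call held in 6 of the 16 alternatives with a test of their own, the fewest of the 7 genes, and was lost with TMM scaling (edgeR adjusted p = 0.0921). It was also lost when any single library other than WT replicate 3 was left out (log2 differences of 0.72 to 1.17, edgeR adjusted p from 0.0634 to 0.132).

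Scaling matters for how these directions are read. In refits of all listed genes by edgeR, 52.1% of the called genes were higher with the authors' size factors, 42.1% with TMM, 70.7% with library totals and 65.5% with GC offsets. Per listed gene, the median shift from the value with the authors' size factors was -0.13, 0.20 and 0.21 (log2) under the last 3 of these settings. With GC offsets the median log2 difference of all listed genes was nonetheless lower, 0.25 against 0.45 with the authors' size factors. The rises of the 5 Fc receptor genes exceeded these median shifts severalfold. With the authors' size factors the changes of Timd4 and Cd163 did so by less, and with GC offsets that of Cd163 did not. Single genes moved further than the median: from the authors' size factors to GC offsets, Cd163 went from -0.80 to -0.21 and Timd4 from 1.06 to 1.76 (edgeR log2 differences). With GC offsets 35.8% of all listed genes were called higher and 18.8% lower, and all 5 Fc receptor genes and Timd4 were among the higher.

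A ratio of 2 genes within a library does not depend on a scaling by 1 factor per library, so the receptors were set against Cd163 in this way. GC offsets differ between genes, so the ratios are not free of that setting. FPKM, the fragment count per length and depth that the authors computed, was used to compare levels of different genes. The deposited gene length is 2250 bases for Fcgr2b and 4492 for Cd163, against 5790 and 5461 exon bases in GENCODE M21. Levels, orders and shares that set genes against each other therefore depend on the lengths used. The fold by which a ratio of 2 genes differs between groups does not. The Fcgr4 to Cd163 ratio of FPKM was 0.823, 0.843, 0.708 and 0.585 in WT and 57.3, 43.4, 31.7 and 37.3 in ARE-/-. Thus Fcgr4 lay below Cd163 in every WT heart and far above it in every ARE-/- heart, a 56.6-fold difference between geometric means. The Fcgr1 to Cd163 ratio went from a range of 0.415 to 0.635 in WT to 7.47 to 13.01 in ARE-/-. The Fcgr3 to Cd163 ratio went from 3.66 to 5.27 up to 19.1 to 41.0. Neither pair of ranges overlapped. The Fcer1g to Cd163 ratio was nearly constant in WT, at 12.1 to 12.5, and was 62.7 to 119 in ARE-/-. For the inhibitory Fcgr2b the ratio to Cd163 was 0.979 to 1.87 in WT and 3.74 to 7.99 in ARE-/-. These ratios were highest in ARE-/- replicate 1 and lowest in ARE-/- replicate 3, and no group overlapped with the other.

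**Figure D2:**
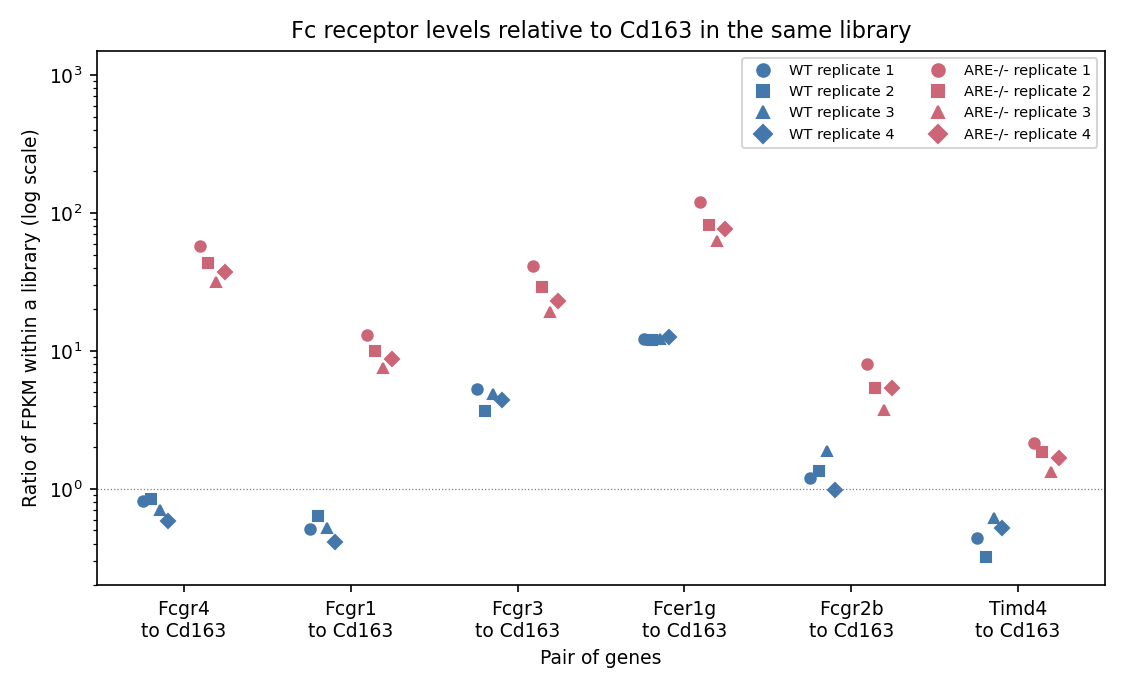
Ratio of the FPKM of each gene to that of Cd163 in the same library (log scale), for the 4 WT and 4 ARE-/- hearts, with a dotted line where both genes are level. The Fcgr4 ratio lies between 0.585 and 0.843 in WT and between 31.7 and 57.3 in ARE-/-, and no pair of groups overlaps.

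The resident macrophage markers did not keep step with each other. The Timd4 to Cd163 ratio was 0.319 to 0.614 in WT and 1.32 to 2.15 in ARE-/-, so Timd4 lay below Cd163 in all WT hearts and above it in all ARE-/- hearts. Against Timd4, the Fcgr4 ratio still went from 1.13 to 2.64 in WT to 22.4 to 26.7 in ARE-/-. In contrast the Fcgr2b to Timd4 ratio, 1.88 to 4.22 in WT and 2.83 to 3.72 in ARE-/-, overlapped between the groups.

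The make-up of the Fc gamma receptor transcripts differed between the genotypes. Of the summed FPKM of Fcgr1, Fcgr2b, Fcgr3 and Fcgr4, the share of Fcgr4 was 10.4% ± 1.90 in WT against 49.7% ± 1.30 in ARE-/- (SD, n = 4 each). Fcgr3 went from 63.6% ± 5.80 to 32.3% ± 1.72, and the inhibitory Fcgr2b from 18.7% ± 3.99 to 6.52% ± 0.559. The dominant transcript was thus Fcgr3 in each WT heart and Fcgr4 in each ARE-/- heart. Fcgr1 took 7.34% ± 1.63 and 11.5% ± 0.486. ARE-/- replicate 1, which had the highest level of every receptor, had an Fcgr4 share of 48.0%, close to the 49.5% to 51.1% of the other ARE-/- hearts.

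**Figure D3:**
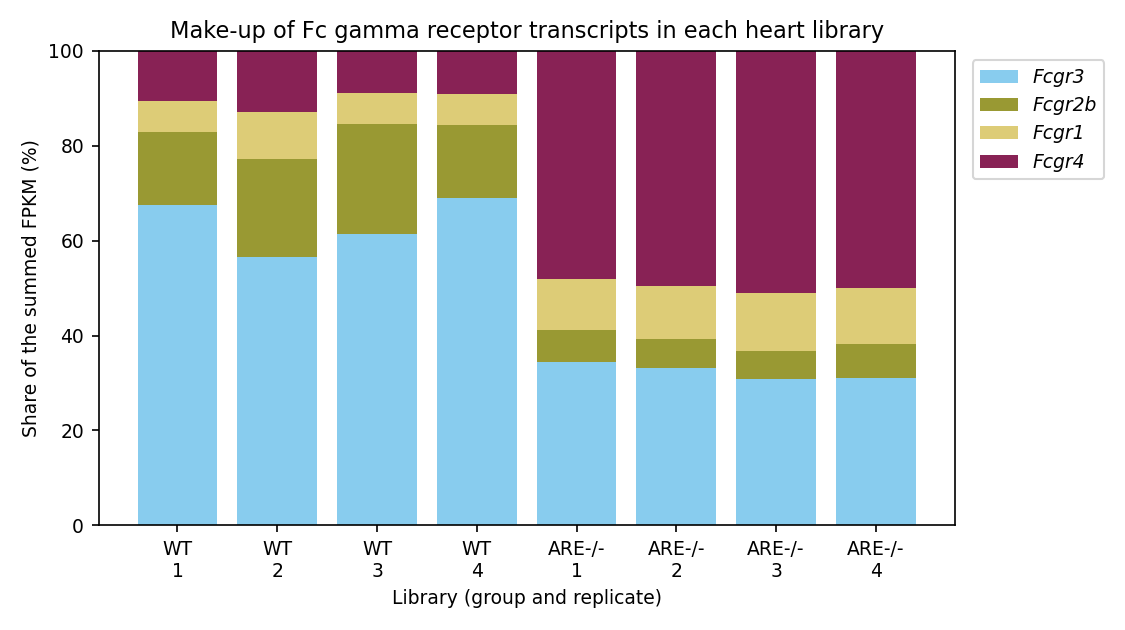
Share of each Fc gamma receptor gene in the summed FPKM of Fcgr1, Fcgr2b, Fcgr3 and Fcgr4, as stacked bars that add up to 100% for each heart library. Fcgr4 takes 8.83% to 13% in WT and 48.0% to 51.1% in ARE-/-.

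Activating receptors gained on the inhibitory receptor. The summed FPKM of Fcgr1, Fcgr3 and Fcgr4 stood to Fcgr2b at 5.48, 3.81, 3.28 and 5.52 in WT and at 13.9, 15.4, 15.6 and 12.8 in ARE-/-. The groups lay well apart, with means of 4.52 ± 1.15 and 14.4 ± 1.29 (SD, n = 4 each). Within this sum the Fcgr3 to Fcgr2b ratio overlapped between groups, at 2.63 to 4.50 and 4.30 to 5.42, whereas the Fcgr4 to Fcgr2b ratio went from 0.378 to 0.684 in WT up to 6.93 to 8.48 in ARE-/-. The chain that these receptors share rose less than their sum. Fcer1g stood at 2.13 ± 0.242 times the summed FPKM of Fcgr1, Fcgr3 and Fcgr4 in WT against 1.06 ± 0.0504 times in ARE-/- (SD, n = 4 each), with ranges of 1.86 to 2.35 and 0.993 to 1.11.

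Ordered by FPKM in WT, Fcer1g came first (26.3 ± 3.60), then Fcgr3 (9.80 ± 2.23), Fcgr2b (2.93 ± 1.17), Cd163 (2.14 ± 0.278), Fcgr4 (1.56 ± 0.198), Fcgr1 (1.10 ± 0.179) and Timd4 (1.04 ± 0.398) (SD, n = 4). Over the WT libraries the ranges of Fcgr2b and Cd163 overlapped, as did those of Fcgr4 and Fcgr1 and those of Fcgr1 and Timd4. The order also depends on the gene lengths used. In ARE-/- the order was Fcer1g (129 ± 85.6), Fcgr4 (63.8 ± 40.0), Fcgr3 (42.9 ± 30.5), Fcgr1 (14.7 ± 8.96), Fcgr2b (8.53 ± 5.82), Timd4 (2.57 ± 1.38) and Cd163 (1.43 ± 0.505) (SD, n = 4). Replicate 1 was high throughout, and the ranges of all neighbours but Fcgr2b and Timd4 overlapped there, yet the order was the same within each of the 4 ARE-/- libraries. Cd163 went from the fourth to the last place.

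Fcgr2b, Fcgr4, Fcgr3 and Fcer1g share a stretch of chromosome 1. In the GENCODE M21 annotation the 273.8 kb from Fcgr2b to Fcer1g hold 11 protein-coding genes. The 4 Fc receptor genes were the only listed ones, and all 4 rose. Gaps of 42.4 kb, 21.4 kb and 165 kb separate Fcgr2b from Fcgr4, Fcgr4 from Fcgr3 and Fcgr3 from Fcer1g. The largest rise and the smallest rise of the 5 receptor genes were thus those of neighbours. The other 7 protein-coding genes of the interval lie between Fcgr3 and Fcer1g and were not among the listed genes.

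Genes with a profile most like that of Fcgr4 were sought among 3455 listed protein-coding genes by the root mean square distance of log2 values over the 8 libraries, each centred on its WT mean. The nearest were the interferon-inducible GTPases Iigp1 (distance 0.263) and Irgm1 (0.305), the NK receptor family member Klra2 (0.351), the macrophage surface protein Slamf8 (0.376) and the guanylate-binding protein Gbp6 (0.428). Their log2 differences were 4.89 ± 0.15, 4.67 ± 0.31, 4.67 ± 0.41, 4.76 ± 0.45 and 5.45 ± 0.27 (SE, n = 4 each). Nearest to Cd163 were Qser1 (0.0715), Atg10 (0.0858), Usp33 (0.0965), Ralgapa1 (0.107) and Ccdc127 (0.108), with log2 differences from -0.89 to -0.75. None of the 5 is a macrophage marker on the lists used here.

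Listed signalling components downstream of the activating receptors also rose. Of 33 genes on a list of that pathway 23 were listed (69.7%, beside 24.6% of all genes tested), and all 23 rose. Their median log2 difference was 1.42, below the 2.81 of the listed general macrophage markers, and 20 stayed higher with GC offsets. The adaptor Pik3ap1, which links receptors to phosphoinositide 3-kinase, rose by 3.17 ± 0.16. Vav1, an exchange factor that acts in phagocytosis, rose by 2.03 ± 0.23, and the actin regulator Was by 1.97 ± 0.18. The phosphoinositide 3-kinase subunit Pik3r5 (2.00 ± 0.18) and the phospholipase Plcg2 (1.30 ± 0.04) were also higher (log2 differences ± SE, n = 4 each). All 6 listed of 10 genes (60.0%) of the inhibitory pathway rose too, with a median of 1.53. They were the phosphatases Ptpn6 (2.33 ± 0.28) and Inpp5d (1.53 ± 0.15), the adaptors Dok1 (2.03 ± 0.12), Dok2 (1.53 ± 0.23) and Dok3 (0.70 ± 0.19), and the phosphatase Ubash3b (1.15 ± 0.21). With GC offsets 5 of the 6 were called, Dok3 being the exception (edgeR adjusted p = 1.0).

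Most listed genes on a list of ITAM-coupled and related receptors and adaptors also rose. Of its 29 genes 22 were listed (75.9%, beside 24.6% of all genes tested), 21 higher and 1 lower. Their median was 2.23. The list also holds receptors known as inhibitory, such as Pirb (1.65 ± 0.22) and Cd300a (1.55 ± 0.25), so it is no count of activating receptors. Tyrobp, the adaptor DAP12, rose by 2.33 ± 0.18, Sirpb1a by 4.07 ± 0.63, Lilra5 by 3.95 ± 0.48 and the NK and T cell receptor Klrk1 by 3.40 ± 0.41. The C-type lectin Clec4n (2.39 ± 0.25) and Treml4 (2.62 ± 0.31) followed. Siglech, a marker of plasmacytoid dendritic cells, fell by 2.74 on this scale. With GC offsets 21 were called higher and none lower.

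Immunoglobulin receptors and related genes outside the Fc gamma family moved in both directions. Of 13 such genes 4 were listed (30.8%, beside 24.6% of all genes tested), with 1 higher and 3 lower, and the other 9 have no known direction. Trim21, a cytosolic antibody receptor and interferon-inducible ubiquitin ligase, rose by 2.40 ± 0.18. Fcrls, an Fc receptor-like gene known from microglia, went from 86.5 to 155 normalised counts in WT to 13.6 to 24.5 in ARE-/-, a log2 difference of -2.52 ± 0.28. The low-affinity IgE receptor Fcer2a, known from B cells, stood at -2.26 ± 0.65 with overlapping groups. Fcer1a, the alpha chain of the high-affinity IgE receptor that pairs with Fcer1g on mast cells, fell by 2.80 from a low level, 7.68 to 0.848 normalised counts on average. With GC offsets the fall of Fcer1a missed the threshold (edgeR adjusted p = 0.0976). Of 13 immunoglobulin chain genes, the ligands or their parts, only Ighg1 was listed, at -1.53 ± 0.62, with overlapping groups.

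General macrophage markers rose as a group. Of 20 genes 17 were listed and all 17 rose, also with GC offsets, with a median of 2.81, and their summed normalised count went from 8828 to 14128 in WT up to 53186 to 79835 in ARE-/-. The complement genes C1qa (3.13 ± 0.10), C1qb (3.18 ± 0.14) and C1qc (2.91 ± 0.15), the galectin Lgals3 (3.73 ± 0.14), the PU.1 gene Spi1 (2.81 ± 0.17) and Aif1 (3.48 ± 0.27) were those with the smallest p. Set against these 17 markers, the log2 difference of Fcgr4 was larger than all of them and that of Fcgr1 larger than 14. Fcer1g exceeded 5 of them, Fcgr3 exceeded 4, Fcgr2b and Timd4 exceeded 1 each, and Cd163 lay below all 17. Thus, of the 7 genes, Fcgr4 alone rose by more than every listed general marker. Whether the rise in macrophage markers accounts for those of the receptors was not tested.

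**Figure D4:**
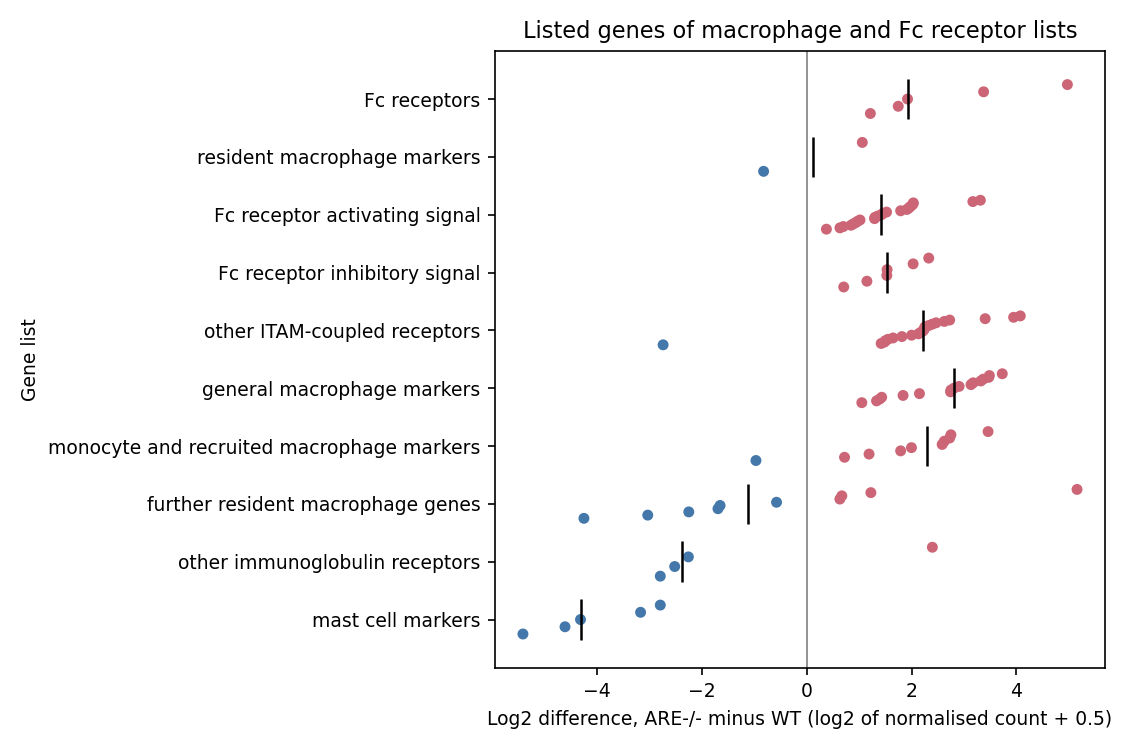
Log2 differences (ARE-/- minus WT) of the listed genes of 10 lists, 1 point a gene, with red for higher, blue for lower and a black bar at the median of each list. General macrophage markers and both signalling lists lie wholly above 0, further resident macrophage genes lie on both sides, and mast cell markers lie wholly below 0.

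By the median of each list, ARE-/- replicate 1 differed from its group in the receptors more than in the general markers. Relative to the WT mean, the median of the 5 Fc receptor genes was 2.90 in that library and 1.56 to 1.62 in the other ARE-/- libraries, on the log2 scale. The general macrophage markers stood at 2.86 in it and at 2.83 to 2.93 in the others. Their summed normalised count was nevertheless highest in that library, 79835 against at most 55221 in the other ARE-/- libraries, so the median hides an excess in part of that list. The monocyte markers stood at 2.97 against 1.78 to 2.10 and the dendritic cell markers at 2.54 against 1.5 to 1.92. The ITAM-coupled and related receptors stood at 2.88 against 1.90 to 1.97. Genes of IFN-γ activation stood at 3.78 against 3.21 to 3.29. Lower transcripts differed as well, with cardiomyocyte markers at -1.42 against -0.75 to -0.66 and erythroid markers at -0.74 against -2.73 to -2.52. That library thus lay outside its group in several lists, and its part in the receptor values was not tested beyond leaving it out. Without it all 5 receptor genes stayed higher and Cd163 lower, as given above.

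Genes of monocytes and recruited macrophages were mostly higher. Of 13 genes 10 were listed, with 9 higher, 1 lower and a median of 2.29. Plac8 rose by 3.46 ± 0.54, Ly6c2, a surface marker of classical monocytes, by 2.75 ± 0.61 and their chemokine receptor Ccr2 by 2.00 ± 0.44. The integrin Itgal (1.79 ± 0.18) and Cd300e (2.73 ± 0.72) were higher too. Nr4a1, known for the maintenance of non-classical monocytes, fell by 0.97. Treml4 (2.62 ± 0.31) and Ace (0.72 ± 0.20), also known from such monocytes, rose. With GC offsets Ace was not called (edgeR adjusted p = 0.155). Signals that draw or keep macrophages rose in all 14 listed of 15 genes, with a median of 1.92. Ccl8 rose by 5.42 ± 0.40, Ccl12 by 3.95 ± 0.20, Ccl7 by 2.58 ± 0.31 and Ccl2 by 2.53 ± 0.27, beside the receptor gene Csf1r (1.33 ± 0.07).

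Further genes of resident macrophages, a list chosen to set beside Cd163, moved both ways. Of 19 genes 10 were listed, 4 higher and 6 lower, with a median of -1.12. Among the lower, the lectins Cd209d and Cd209f stood at -4.25 ± 0.56 and -2.25 ± 0.47, and the coagulation factor gene F13a1 at -1.66 ± 0.34. F13a1 counts were 549 to 752 in WT and 136 to 377 in ARE-/-. Cd5l, a scavenger receptor family gene induced in tissue macrophages, rose by 5.16 ± 0.81, and the lectin Clec10a (1.22 ± 0.16), Gas6 (0.63 ± 0.09) and the transcription factor Maf (0.67 ± 0.12) rose less. With GC offsets 3 were called higher and 5 lower. Cd163 was thus not alone among resident genes in its fall, and the list moved in both directions.

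Scavenger receptors, the wider group to which Cd163 belongs, also split. Of 20 genes 8 were listed (40.0%, beside 24.6% of all genes tested), 6 higher and 2 lower. Marco rose by 4.64 ± 0.88, Havcr2, like Timd4 a TIM-family receptor, by 2.53 ± 0.57, Cxcl16 by 2.13 ± 0.21, Axl by 1.99 ± 0.21, Msr1 by 1.43 ± 0.39 and Scarb1 by 0.79 ± 0.23. The ferritin receptor Scara5 fell by 1.10 and the fatty acid transporter Cd36, abundant in heart muscle and endothelium, by 0.63. With GC offsets 5 were called higher and 1 lower.

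Genes of haemoglobin and haem clearance, the task of Cd163, were listed for 8 of 15 (53.3%, beside 24.6% of all genes tested). Of these, 6 were higher and 2 lower. The metal transporter Slc11a1 of phagosomes rose by 3.17 ± 0.13, Hmox1, which breaks down haem, by 1.68 ± 0.22, and the transcription factor Spic, known for iron-recycling macrophages, by 1.83 ± 0.29. Haptoglobin, encoded by Hp, rose by 1.16 ± 0.31, and Ftl1 (0.64 ± 0.05) and Blvrb (0.62 ± 0.14) were also higher. The iron exporter Slc40a1 fell by 1.27 and the transferrin receptor Tfrc by 0.75. Only 3 remained called higher and 1 lower with GC offsets. The globin and Alas2 transcripts of red cells were lower in ARE-/-, with a summed normalised count of 729921 to 873678 in WT and 116650 to 441922 in ARE-/-, and their part in these values was not tested.

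Genes of IFN-γ activation rose together, and those of alternative activation moved both ways. Of 16 genes of IFN-γ-activated macrophages 13 were listed and all 13 rose, also with GC offsets, with a median of 3.20. Examples are Irf1 (2.75 ± 0.12), Irf8 (3.20 ± 0.12), Irf5 (2.17 ± 0.12), Cxcl9 (5.63 ± 0.40) and Ciita (4.14 ± 0.31). Of 14 genes linked to alternative activation 7 were listed, 5 higher and 2 lower, Cd163 itself being 1 of the latter. Ccl22 (5.94 ± 0.99), Ccl17 (2.87 ± 0.57), Pdcd1lg2 (3.86 ± 0.49), Il4ra (1.58 ± 0.15) and Clec10a rose, and the secreted protein gene Retnla fell by 1.78. In normalised counts the groups did not overlap for any of the 7, beside 81.5% of all listed genes.

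Markers of other cells that carry Fc receptors moved in different directions. All 5 listed of 7 mast cell markers fell, with a summed normalised count of 337 to 450 in WT and 20.1 to 21.6 in ARE-/-. Mcpt4 and Tpsb2, mast cell proteases, stood at -4.32 ± 0.22 and -5.42 ± 0.90. The 5 listed of 11 neutrophil markers fell, with sums of 115 to 221 and 19.2 to 43.3, Mmp9 (-1.97 ± 0.31) and Ngp (-4.79 ± 0.75) among them, and Mpo was at 0 reads in all 4 ARE-/- libraries. Of 5 B cell markers only Pax5 was listed (20.0%, beside 24.6% of all genes tested), and it fell by 2.67. No direction of B cell markers is read from this 1 gene. All 11 listed of 14 T and NK cell markers rose, with sums of 221 to 468 in WT and 1779 to 2414 in ARE-/-, as did 4 of 5 listed dendritic cell markers, with Nkg7 at 3.51 ± 0.26, Klrb1c at 2.44 ± 0.31, Itgax at 3.18 ± 0.14 and Batf3 at 2.58 ± 0.18. Of 7 lymphatic endothelial markers 4 were listed, 1 higher and 3 lower, Reln (-2.34 ± 0.60) and Prox1 (-0.50 ± 0.07) among the lower, and Lyve1 is known from such vessels too. The share of each of these cell types in the Fc receptor and Cd163 values was not tested.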

How the data were processed

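Total RNA of 8 hearts was sequenced in paired ends on an Illumina instrument, per the labels' protocols. The submitters' processing notes name STAR, DESeq2 and mm10, without versions. Read counter, strand setting and annotation were not given in the sources used here. Per the file headers, the deposited table has whole counts of reads and, computed by the authors, FPKM for every library. Its normalised signal is a group mean of counts that the authors had scaled, and solving those means gave each library's size factor. Its log2 fold changes and its raw and adjusted p-values were computed by the authors. A deposited Gene Ontology table was not used.

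All genes in the table have an adjusted p under 0.05, so the authors' calls are the result, and an unlisted gene has no known direction. Genes and lists were chosen with earlier results of these data known. Groups came from the library titles. In lists with over 8 listed genes, the 6 with the smallest adjusted p were named, with all that went against the majority. In cell type lists 2 were named. Some genes that this takes in are not reported here. A total of 25 gene lists were used. The offset of 0.5 draws differences of low genes towards 0.

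Refits of the listed genes were alternatives only, with p-values adjusted as for 19606 genes: DESeq2 1.42.0 and the quasi-likelihood test of edgeR 4.0.16 (limma 3.58.1, R 4.3.3). The edgeR step was tested on simulated data. Alternatives were TMM, library totals, GC offsets estimated on these genes (which can remove real differences), a replicate block, other offsets, filters and thresholds, leaving out libraries and, added after seeing the data, summing the 3 close libraries of each group. Shared 50-base windows and GC content came from GENCODE M21 transcripts, promoters from RefSeq. Coordinates of Cd163 and Fcgr2b in the deposited table differ from that annotation.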

Additional observations from a re-analysis of the deposited data

Results flagged for a closer look

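ARE-/- replicate 1 lay far above the other ARE-/- libraries in 6 of the 14 sets of 4 normalised counts (7 genes in 2 groups), where chance alone marks about 1 in 20. The gap to the nearest library, as a fraction of the range of the group, was 0.95 for Fcgr1, 0.908 for Fcgr2b, 0.918 for Fcgr3, 0.956 for Fcgr4, 0.972 for Fcer1g and 0.979 for Timd4, each above Dixon's critical value for 4 samples. The counts of that library were 2.29 times the mean of the other ARE-/- libraries for Fcgr1, 2.54 times for Fcgr2b, 2.66 times for Fcgr3, 2.34 times for Fcgr4, 2.47 times for Fcer1g and 2.05 times for Timd4. Cd163 was 1.51 times as high there and was not set apart by the same measure. The 6 genes come from 1 library and are not independent. The cause was not tested.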

How the results depend on the processing

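Over 20 alternatives none of the 7 genes changed direction. In 4 of them, the log offsets and count filters, the authors' adjusted p carries over, so calls were compared in the other 16. Fcgr4 (4.67 to 5.62) and Fcgr1 (3.07 to 3.73) kept their calls in all 16, Fcer1g and Fcgr3 in 15, Fcgr2b (0.80 to 1.68) in 11, Cd163 in 10 and Timd4 in 6. Cd163 stood at -0.58 with library totals, -0.21 with GC offsets and -0.72 with the 3 close libraries of each group summed (edgeR adjusted p = 0.179, 1.0 and 0.585), and between -0.97 and -0.69 when single libraries were left out. The Fc receptor genes called higher were 5 except with TMM (4) and with the close libraries summed (2), and 4 to 5 when single libraries were left out. Timd4 was not called with TMM, the replicate block, the close libraries summed, an adjusted p under 0.01 or a 2-fold minimum (0 resident markers higher), and 0 to 1 were higher when single libraries were left out. Cd163 was not called with library totals, GC offsets, the close libraries summed or a 2-fold minimum (0 lower), and 0 to 1 were lower without single libraries. Of the 4820 listed genes 2634 were called with GC offsets, 293 with the close libraries summed, 3132 at an adjusted p under 0.01, 2321 with a 2-fold minimum and 2763 to 4525 without single libraries. Of 920 counts of other lists 808 stayed within 1.5 times and 112 were smaller. The 808 include counts that were 0 in the main result and stayed at 0, so they overstate how firm the lists are.

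Replicate numbers did not pair the libraries: deviations of same-numbered libraries correlated at -0.0073, 0.062, -0.18 and 0.25 over 3555 genes. With the replicate block in the edgeR fit, Fcgr4 stood at 4.99, Cd163 at -0.82 and Timd4 at 1.04 (adjusted p = 7.7e-06, 0.0293 and 0.0668), and 3464 genes were called. Low counts limit Timd4, Fcgr4 and Fcgr1 in WT, with 19 to 58 reads in a WT library. In ARE-/- Timd4 had 57 to 158 reads in a library.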
